A study of Mus musculus with 6 samples.

Results

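The factors described here are 10 transcription factors that set up and keep the epidermal lineage: *Trp63*, *Sox2*, *Sox9*, *Klf4*, *Klf5*, *Grhl2*, *Grhl3*, *Tfap2a*, *Tfap2c* and *Ovol1*. They were picked by gene name, and each had 1 entry of its own among the 23698 counted gene entries. All 10 passed the minimum levels given below, as did 9863 entries in all. The study asked how alternative 5′UTRs relate to the translation of mRNAs in mouse skin and in SCCc, its cultured squamous cell carcinoma cells. Of SCCc, 1 ribosome profiling library and 2 RNA-seq libraries were analysed. All 3 came from primary keratinocytes of newborn (P0) back skin with the genotype HrasG12V; Tgfbr2 fl/fl KO, at passages 10 to 15. The libraries of wild-type keratinocytes and of SCA-1+ epidermal stem cells were not analysed here, so every value is a level within SCCc and none is a change against normal cells. They are a single cell line made in earlier work and grown in low-calcium medium, so the values hold for that line, without the other cells of a tumour. The methods name a feeder layer for the wild-type keratinocytes. The labels do not say whether the RNA-seq replicates are separate cultures or repeated libraries. The paper names further SCCc ribosome profiling libraries, which were not analysed here, so footprints have no replicate in these values.

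The depth, as the sum of counts on exons, was 3549555 for ribosome profiling and 10707930 and 14003713 for RNA-seq replicates 1 and 2. Of the ribosome profiling counts, 3198469 lay on coding sequence (CDS). Ribosome profiling sequences the mRNA pieces that ribosomes shield from nuclease, called footprints. Levels are given as RPKM, the counts per kilobase of counted sequence and per 1000000 exon counts of that library. Translational efficiency divides the RPKM of CDS footprints by the exon RPKM averaged over the RNA-seq replicates, on the log2 scale and relative to the median of all 9863 passing genes, so that 0 is the efficiency of the median gene. Passing required each RNA-seq library to exceed 1 RPKM, a mean of more than 25 size-adjusted counts over the 3 libraries, and footprints on a counted CDS. A value marked ± carries the SD over the RNA-seq replicates (n = 2), and the 95% intervals are exact Poisson intervals of the footprints unless another kind is named. Intervals and limits cover counting error at most. They take each read as a separate molecule, so reads copied in the PCR would make them too narrow. The interval of a single efficiency leaves out the counting error of RNA-seq.

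As background, p63, the product of *Trp63*, is the factor on which stratified epithelia and their basal cells depend. KLF4, GRHL3 and OVOL1 act later, when keratinocytes stop dividing and build the skin barrier, while SOX9 marks hair follicle stem cells, and SOX2 is absent from most normal epidermis but appears in squamous tumours. KLF5, GRHL2 and the AP-2 factors TFAP2A and TFAP2C work in dividing epithelial cells, where GRHL2 keeps cell junctions in place.

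The keratinocyte label was checked on markers of basal keratinocytes and of other skin cells. All 9 basal markers passed, with summed RNA-seq levels of 15684 and 17834 RPKM in replicates 1 and 2, and *Krt5* was the most abundant at a mean of 8724 RPKM. Of 7 suprabasal markers, *Flg* had no entry and 5 passed. Their summed levels were 322 and 343 RPKM, led by *Sbsn* at 155 RPKM, while the cornified envelope gene *Lor* had 2 counts in each RNA-seq library. None of 8 fibroblast or feeder cell markers passed, with sums of 10.3 and 16.0 RPKM, and the most abundant, *Col3a1*, reached 4.69 RPKM, more than the 3.49 RPKM of *Grhl3* and the 2.15 RPKM of *Ovol1*. Of the 8, 4 had a mean above 1 RPKM, *Col1a1*, *Col1a2*, *Col3a1* and *Dcn*, and each of these had 0 footprints. *Dcn* also had few RNA-seq counts, 28.0 and 30 in replicates 1 and 2. The list held 10 footprints, all on *Pdgfra*. The 5 melanocyte markers summed to 5.29 and 5.65 RPKM, nearly all of it *Pmel* at 5.11 RPKM, and only *Pmel* passed. The 4 immune cell markers summed to 2.80 and 8.73 RPKM with *Lyz2* highest at 5.64 RPKM, *Cd3e* and *Cd207* at 0, and 0 footprints. The 3 endothelial markers summed to 0.505 and 0.591 RPKM, with *Kdr* highest at 0.333 RPKM. Of 3 Merkel cell markers, *Krt20* stood at 250 RPKM and *Isl1* at 4.31 RPKM, while *Atoh1*, the factor that defines Merkel cells, was listed at 0 in both RNA-seq libraries. The part of any non-keratinocyte RNA in the values below was not tested. The label of keratinocytes with a basal profile held in these data, and the summed suprabasal level was far below the basal one.

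Of these exon counts, the 10 factors together held 2810 footprints and 14349 and 17479 counts in RNA-seq replicates 1 and 2. Per 1000000 exon counts this was 792, 1340 and 1248, so on exons their share of the footprints was smaller than their share of either RNA-seq library. Exon counts include the 3′UTR, where *Trp63* had 5526 and 5850 RNA-seq counts in replicates 1 and 2 and 22.4 footprints. On CDS counts alone the shares of the 10 factors were close to each other. *Trp63* alone gave most of the RNA, with 9159 and 10559 counts. The median RNA-seq level of the 10 was 16.8 RPKM beside 15.3 RPKM over all passing genes. Their median footprint level was 28.5 RPKM beside 19.1 RPKM. As a group they were therefore neither rare nor unusually abundant among expressed genes, but they spread widely, with 62.0-fold between the highest and lowest RNA-seq level and 36.8-fold between the highest and lowest footprint level.

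Ordered by mean RNA-seq RPKM, the factors ran *Trp63*, *Grhl2*, *Klf4*, *Klf5*, *Tfap2a*, *Sox2*, *Tfap2c*, *Sox9*, *Grhl3* and *Ovol1*. The neighbours *Grhl2* and *Klf4* did not differ, at a log2 difference of 0.01 and a 95% counting interval from -0.06 to 0.08. The other 8 neighbouring pairs differed by more than both the counting interval and the SD over replicates. By footprint RPKM on the CDS the order was *Trp63*, *Klf5*, *Grhl2*, *Sox2*, *Tfap2a*, *Sox9*, *Klf4*, *Ovol1*, *Tfap2c* and *Grhl3*. Here *Sox2* and *Tfap2a*, *Tfap2a* and *Sox9*, *Ovol1* and *Tfap2c*, and *Tfap2c* and *Grhl3* did not differ beyond their counting intervals. The widest change of place between RNA and footprints was that of *Klf4*, ranked 3 by RNA and 7 by footprints, and *Klf5* moved the other way, from 4 to 2. In bulk libraries such as these, fewer cells that express a factor and less RNA per cell cannot be told apart, which touches the low levels of *Grhl3* and *Ovol1* first.

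**Figure D1:**
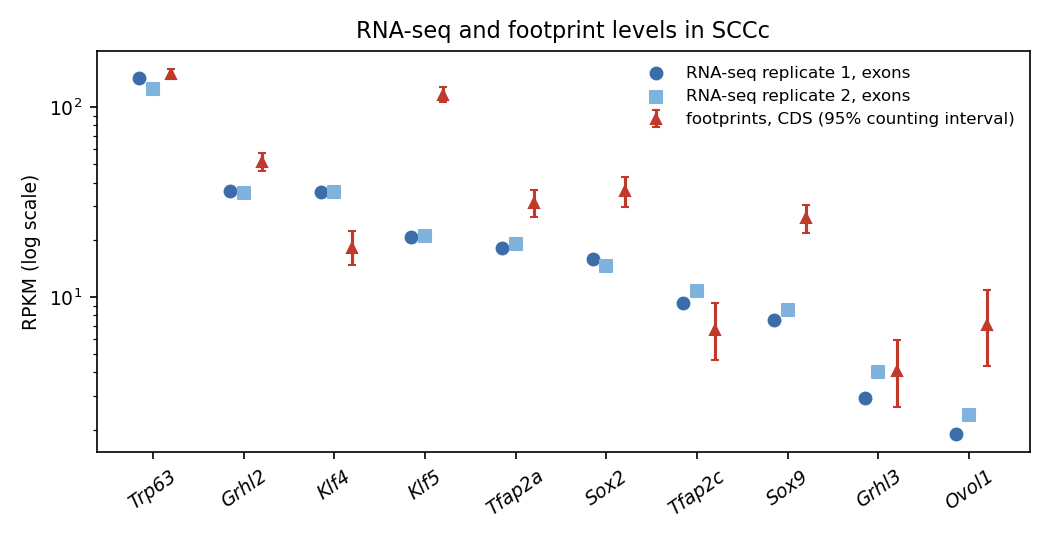
Level of each factor in RPKM on a log scale, for RNA-seq replicates 1 and 2 on exons and for footprints on the CDS, with the 95% counting interval of the footprints. The RNA-seq replicates lie farthest apart for *Grhl3*, *Trp63* is highest in both measures, and footprints stand far above RNA for *Klf5* and below it for *Klf4*.

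Ordered by translational efficiency, the factors ran *Klf5*, *Ovol1*, *Sox9*, *Sox2*, *Tfap2a*, *Grhl2*, *Grhl3*, *Trp63*, *Tfap2c* and *Klf4*. Of the 10, 3 lay above 1 on the log2 scale, a 2-fold higher efficiency than the median gene, and these were *Klf5*, *Ovol1* and *Sox9*, beside 20.8% of all passing genes. *Klf4* was the 1 factor below -1, beside 21.1% of all passing genes. With 10 genes, neither count stands far from those shares. The factors had a median of 0.30 ± 0.03, beside 0 over all genes by definition, and 6 of the 10 were above 0. The values had an SD of 1.08 across the factors and of 1.45 across all passing genes, so the factors were not spread more widely than other genes.

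Several neighbours in this order could not be separated. The 95% counting interval of the difference ran from -0.68 to 0.76 for *Ovol1* and *Sox9*, and from -0.07 to 0.52 for *Tfap2a* and *Grhl2*. It ran from -0.29 to 0.92 for *Grhl2* and *Grhl3*, and from -0.54 to 0.64 for *Grhl3* and *Trp63*. For *Tfap2c* and *Klf4* it ran from -0.19 to 0.95. The other 4 neighbouring pairs, *Klf5* and *Ovol1*, *Sox9* and *Sox2*, *Sox2* and *Tfap2a*, and *Trp63* and *Tfap2c*, differed beyond counting error and the SD over replicates. These pairs do not divide the order into separate levels: *Ovol1* and *Sox2*, compared after the values were seen, differed by 0.47 with an interval from -0.25 to 1.20. With RNA-seq counted over the CDS the difference of *Sox9* to *Sox2* fell to 0.09, and with counts not divided by length that of *Trp63* to *Tfap2c* turned to -0.12.

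**Figure D2:**
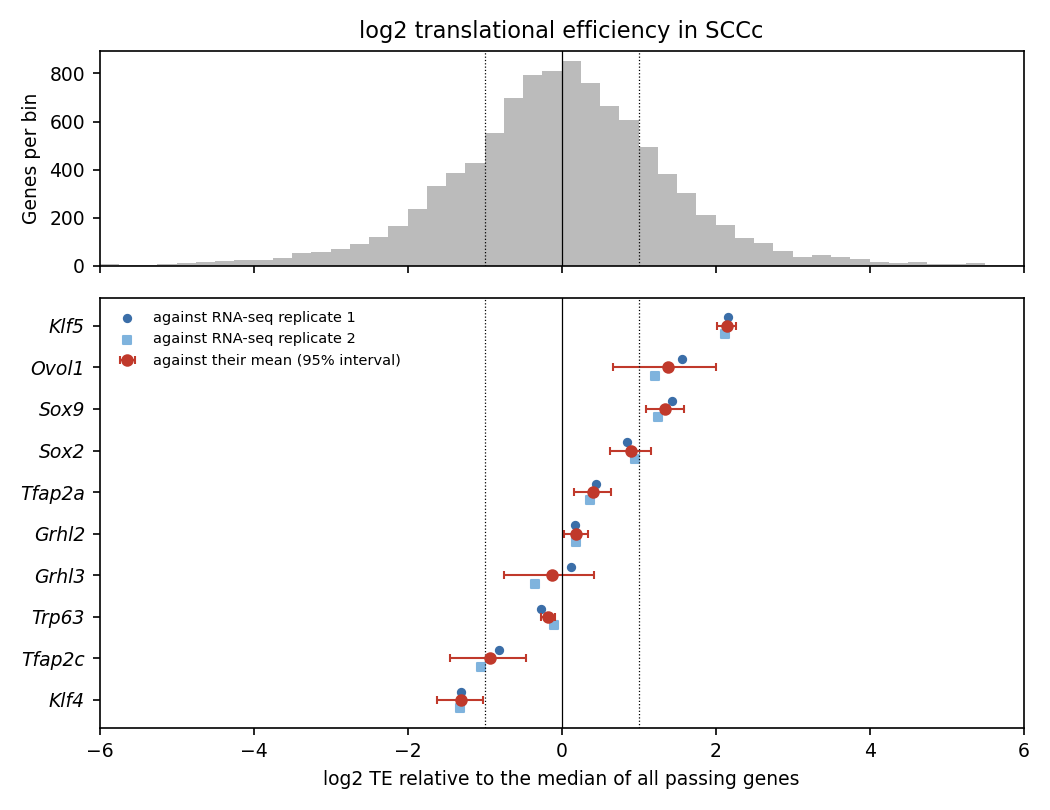
Top, histogram of log2 translational efficiency over the passing genes, drawn from -6 to 6; bottom, each factor with the 95% counting interval of its footprints and its value against each RNA-seq replicate, dotted lines at -1 and 1. The factors range from -1.31 (*Klf4*) to 2.14 (*Klf5*), at the 15.8th and 94.4th percentiles of the passing genes.

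Because the study is about 5′UTRs and initiation, the sequence around the annotated start codon of each factor is shown, with the start codon in capitals, 9 bases before it and 3 after it. The sequences follow the transcript models of GENCODE M21 on GRCm38, and *Trp63* has a start for each of its promoters, ΔN for the short and TA for the long form.
Klf5: agaccgtccATGccc
Ovol1: gaactgaagATGcct
Sox9: ggctcgcgtATGaat
Sox2: agcgcccgcATGtat
Tfap2a: tccatgaaaATGctt
Grhl2: ggatcaaacATGtca
Grhl3: agaaggaagATGtcg
Trp63 ΔN: actgctaacATGttg
Trp63 TA: ttgaaggaaATGaat
Tfap2c: ccggacgccATGttg
Klf4: cccacattaATGagg
The motif ANNATG or GNNATG, which places a purine at the position of the Kozak context that matters most, was present at the start of 6 of the 10 factors, with the ΔN start taken for *Trp63*. Among 9240 passing genes with such a start to read, 87.3% had it. The 6 were *Trp63*, *Grhl2*, *Grhl3*, *Tfap2a*, *Tfap2c* and *Ovol1*, with a median log2 translational efficiency of 0.03, and the 4 without it, *Klf4*, *Klf5*, *Sox2* and *Sox9*, had a median of 1.12. Over all genes the medians ran the other way, at 0.05 with the motif and -0.28 without it. The motif ATGG was at none of the 10 starts, beside 54.4% of 9378 passing genes, whose medians were 0.02 with it and -0.03 without it. The 4 without the purine motif hold both the highest factor, *Klf5*, and the lowest, *Klf4*. A match or its lack is a description of these letters only.

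Upstream ATG codons were counted in annotated 5′UTRs of at least 30 nt, which left out *Sox2*, whose model holds only 11 nt of 5′UTR. They were present in 5 of the other 9 factors, beside 51.2% of 8816 passing genes. Those 5 were *Klf4*, *Grhl2*, *Grhl3*, *Tfap2a* and *Tfap2c*, with a median log2 translational efficiency of -0.13, and the 4 without, *Klf5*, *Ovol1*, *Sox9* and *Trp63*, had a median of 1.36. Over all genes the medians were -0.25 with an upstream ATG and 0.23 without one. The medians of the factors thus differed in the direction seen over all genes, with exceptions on both sides. *Tfap2a* and *Grhl2* hold an upstream ATG and lay above 0, and *Trp63* has none in its ΔN model and lay below 0. The count of 5 of 9 is near the share over all genes. The upstream sites are shown because the factors that hold one had the lower median, with the upstream ATG in capitals.
Klf4 upstream: cccgcgcccATGgcc
Tfap2c upstream: cagccaccgATGcgc
Grhl3 upstream: aggaagggaATGtct
Grhl2 upstream: gcgggccccATGtga
Tfap2a upstream: cgccgatccATGaaa
In *Klf4* the upstream ATG lies 460 nt before the start codon and opens a frame of 59 codons that ends within the 5′UTR. The frames of the others are short, with 4 codons in *Tfap2c*, 7 codons in *Grhl3* and 1 codon in *Grhl2*, where the upstream ATG is followed at once by a stop. In *Tfap2a* the upstream ATG lies 6 nt before the start codon and in frame with it. The long TA model of *Trp63* has 8 upstream ATGs in 525 nt of 5′UTR.

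*Trp63*, the master factor of the basal layer, lies at chr16:25683763-25892102 on the plus strand with 8 coding transcripts. Its RNA-seq level was 141 RPKM in replicate 1 and 125 RPKM in replicate 2, higher than 95.1% of passing genes. The CDS held 1011 footprints (149 RPKM, 95% interval 950 to 1075 footprints), higher than 89.2% of passing genes. Both levels were high, so p63 is among the well expressed genes of SCCc. The log2 translational efficiency was -0.18 ± 0.12, or -0.26 against replicate 1 and -0.10 against replicate 2, and the counting interval from -0.27 to -0.09 left it slightly below the median gene. Of its annotated CDS, 82.7% was counted, and 281 nt of exon were counted as neither CDS nor UTR. Those 281 nt held 151 footprints (152 RPKM) and 183 and 175 RNA-seq RPKM, while the CDS had 139 RNA-seq RPKM in each replicate. These positions thus had a footprint density like that of the CDS and a higher RNA density, and their footprints are not part of the translational efficiency. The ΔN and TA forms share most of their CDS and cannot be told apart from these counts.

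The members of the p53 family outside the 10 are *Trp53* and *Trp73*, and both passed. Their median log2 translational efficiency was 0.69, with *Trp53* at 2.00 ± 0.08 and *Trp73* at -0.61 ± 0.04. One of the 2 was above 1 and 0 were below -1. The value of *Trp63* lay between those of its relatives, though the interval of *Trp73*, from -1.13 to -0.13, overlaps that of *Trp63*. In RNA *Trp63* was above both, as *Trp53* had 31.9 and 34.2 RPKM and *Trp73* 5.99 and 6.15 RPKM.

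A list of genes linked to p63 in basal keratinocytes held 19, and all passed. Only *Igfbp3* was above 1, at 1.10, and 9 were below -1, beside 20.8% and 21.1% of all passing genes, with a median of -0.93 beside 0. *Igfbp3* is known as a gene that the ΔN form represses, and the other 18 had a median of -0.97. *Fras1*, a basement membrane protein, was lowest at -4.07 on 4 footprints. The keratins *Krt5* and *Krt14* were at -1.25 and -1.09, and 14 of the 19 lay below 0. These genes were abundant, with a median RNA-seq level of 163 RPKM, and most had fewer footprints per RNA than the median gene.

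*Sox2*, a stem cell factor of squamous tumours, lies at chr3:34650405-34652461 on the plus strand. It had 15.8 and 14.5 RNA-seq RPKM in replicates 1 and 2, near the middle of passing genes at the 49.6th percentile. Its CDS held 119 footprints (35.9 RPKM, interval 98.6 to 142 footprints). The log2 translational efficiency was 0.91 ± 0.07 with an interval from 0.63 to 1.16, so whether it exceeds 1 could not be settled at this depth. *Sox2* was thus both transcribed and translated in SCCc.

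*Sox9*, the factor of hair follicle stem cells, lies at chr11:112782224-112787760 on the plus strand. Its RNA-seq levels of 7.60 and 8.54 RPKM were higher than those of 28.9% of passing genes. With 137 footprints on the CDS (25.9 RPKM, interval 115 to 162 footprints), it reached the 57.8th percentile of footprints. The log2 translational efficiency was 1.34 ± 0.13 with an interval from 1.09 to 1.58. The log2 difference of *Sox9* to *Sox2* was -0.91 ± 0.20 in RNA and closer to 0 in footprints, at -0.47 with a 95% counting interval from -0.83 to -0.12. The log2 translational efficiency of *Sox9* was higher by 0.44 ± 0.20 with an interval from 0.06 to 0.82, but with RNA-seq counted over the CDS the values were 1.41 and 1.33, so a difference within this pair depends on where RNA is counted.

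Of 17 other Sox genes, 4 passed, with 0 above 1, 2 below -1 and a median of -1.39. They were *Sox4* at 0.46, *Sox15* at -0.25, *Sox12* at -2.53 on 6 footprints and *Sox6* at -3.11 on 5 footprints. Of the 17, 6 had 0 RNA-seq counts in both replicates, *Sox1*, *Sox3*, *Sox8*, *Sox14*, *Sox17* and *Sox30*. *Sox2* and *Sox9* thus had higher values than each of these 4, though the interval of *Sox4*, from 0.17 to 0.73, overlaps that of *Sox2*. *Sox15* was the most abundant of those by RNA, at 43.6 RPKM.

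*Klf5*, a factor of dividing basal cells, lies at chr14:99298691-99315036 on the plus strand. Its RNA-seq level was 20.6 RPKM in replicate 1 and 20.9 RPKM in replicate 2, at the 60.0th percentile. The CDS held 502 footprints (116 RPKM, interval 459 to 548 footprints), at the 86.6th percentile. Few genes drew more footprints per RNA: the log2 translational efficiency of 2.14 ± 0.03, with an interval from 2.01 to 2.27, was higher than that of 94.4% of passing genes. Among the 4329 passing genes with a counted CDS between 801 and 1913 nt, the range of the factors, it was higher than 96.9%. This length range was chosen after the data were seen, and its median was 0.02. Only 83 nt of 3′UTR were counted for *Klf5*, beside 1710 nt in its GENCODE M21 model, so its exon RNA-seq level rests mostly on coding positions. When coding positions alone gave the RNA level, its log2 translational efficiency was 2.09.

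*Klf4*, which drives late differentiation and barrier formation, lies at chr4:55527143-55532466 on the minus strand. Its RNA-seq level was 35.6 RPKM in both replicates, at the 76.7th percentile. The CDS held 93.4 footprints (18.2 RPKM, interval 75.5 to 114 footprints), at the 48.9th percentile. Its abundant RNA thus carried few ribosomes, with a log2 translational efficiency of -1.31 ± 0.01 and an interval from -1.62 to -1.02. Beside *Klf4*, *Klf5* had 0.583-fold the RNA and 6.39-fold the footprints. That amounts to a log2 difference in translational efficiency of 3.45 ± 0.01 with an interval from 3.12 to 3.79, or 11.0-fold, the widest gap between any 2 of the 10. The RNA order and the footprint order of the Klf factors were opposite.

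Of 15 other Klf genes, 8 passed, with 2 above 1, 1 below -1 and a median of 0.25. The highest were *Klf6* at 1.59 and *Klf16* at 1.38, and the lowest was *Klf11* at -2.84 on 6 footprints. *Klf13*, *Klf7*, *Klf3*, *Klf9* and *Klf10* lay between, at 0.51, 0.48, 0.01, -0.06 and -0.27. *Klf5* was higher than all 8, and *Klf4* was lower than 7 of them, *Klf11* being the exception.

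*Grhl2*, which sustains epithelial junctions, lies at chr15:37233036-37363569 on the plus strand. It had 36.1 and 35.4 RNA-seq RPKM in replicates 1 and 2 and 343 footprints on the CDS (51.5 RPKM, interval 307 to 381 footprints). Its log2 translational efficiency of 0.18 ± 0.01, with an interval from 0.03 to 0.34, lay slightly above the median gene, but it was -0.21 with at least 100 counts in every library and -0.20 with counts not divided by length. *Grhl3*, the barrier factor of the family, lies at chr4:135541888-135573630 on the minus strand and was far lower. It had 2.95 and 4.02 RNA-seq RPKM from 87.9 and 157 counts, and 26.0 footprints (4.05 RPKM, interval 17.0 to 38.1 footprints). The replicates disagreed on its sign, with a log2 translational efficiency of 0.12 against replicate 1 and -0.35 against replicate 2, so it cannot be placed above or below the median gene. *Grhl2* exceeded *Grhl3* 10.2-fold in RNA and 12.7-fold in footprints, and the difference in translational efficiency of 0.31 ± 0.33 was not beyond the spread. The gap between the Grhl factors was thus beyond counting error in RNA and in footprints. Whether they also differ in efficiency could not be settled at this depth, as the counting interval of that difference ran from -0.29 to 0.92.

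Of 4 other genes of the Grhl family, 3 passed, with 0 above 1, 0 below -1 and a median of -0.11. They were *Tfcp2* at 0.06, *Grhl1* at -0.11 and *Ubp1* at -0.86, while *Tfcp2l1* did not pass. *Grhl1*, a regulator of desmosome genes in skin, had 11.7 and 11.0 RNA-seq RPKM, between *Grhl2* and *Grhl3*.

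*Tfap2a*, an AP-2 factor of basal keratinocytes, lies at chr13:40715302-40738376 on the minus strand. It had 18.0 and 18.9 RNA-seq RPKM and 148 footprints on the CDS (31.1 RPKM, interval 125 to 173 footprints). Its log2 translational efficiency was 0.41 ± 0.06 with an interval from 0.17 to 0.64. *Tfap2c*, which helps to open epidermal chromatin in the surface ectoderm, lies at chr2:172549593-172558622 on the plus strand. It had 9.33 and 10.8 RNA-seq RPKM but only 35.9 footprints (6.69 RPKM, interval 25.1 to 49.7 footprints). Its log2 translational efficiency was -0.93 ± 0.16 with an interval from -1.45 to -0.46, and against replicate 2 alone it was -1.04, which would place it below -1 with *Klf4*. *Tfap2a* exceeded *Tfap2c* by 0.88 ± 0.10 in log2 RNA and by 2.22 in log2 footprints. The AP-2 factors therefore differed in both RNA and efficiency, the latter by 1.34 ± 0.10 with an interval from 0.80 to 1.88.

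None of the 3 other Tfap2 genes passed. *Tfap2b* had 1 and 2 RNA-seq counts, *Tfap2d* and *Tfap2e* were listed at 0 RNA-seq counts, and the 3 genes had 0 footprints. *Tfap2a* and *Tfap2c* were thus the AP-2 genes detected in SCCc beyond 3 counts in a library.

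*Ovol1*, a repressor that lets keratinocytes leave the cell cycle, lies at chr19:5549136-5560646 on the minus strand. It was the least abundant of the 10 by RNA, with 1.90 and 2.39 RNA-seq RPKM from 59.0 and 97.1 counts, and only 3.59% of passing genes were lower. It had 20.1 footprints on the CDS (7.08 RPKM, interval 12.3 to 31.0 footprints). The log2 translational efficiency of 1.38 ± 0.25 has an interval from 0.67 to 2.00, so its place above 1 rests on few footprints. Of its relatives, *Ovol2* passed and *Ovol3* did not, so the median of that pair is the 0.87 of *Ovol2*, with 0 above 1 and 0 below -1. *Ovol2*, which guards epithelial identity, had 4.14 and 4.40 RNA-seq RPKM and 29.0 footprints. *Ovol3* had 23.6 and 41.0 RNA-seq counts and 0 footprints, with an interval that reaches 3.69 footprints.

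Genes that Grhl2 or the Ovol factors promote in epithelia numbered 10, of which 9 passed, with a median of 0.68. Of the 9, 3 were above 1 and 0 below -1, and the shares to set beside such counts in any of the lists are the 20.8% and 21.1% of all passing genes. *Cldn7* was highest at 3.26 and *Esrp1* lowest at -0.47. Of 9 mesenchymal factors that they oppose, 4 passed, with 2 above 1, 0 below -1 and a median of 0.90. *Vim* was highest at 1.5, at only 1.63 and 3.11 RNA-seq RPKM, and *Snai2* lowest at -0.57. *Snai2* was also the most abundant at 91.3 RPKM, while *Snai1* was listed at 0 in both replicates. Apart from *Snai2*, the mesenchymal list was thus low in RNA beside *Grhl2*. Beside *Ovol1* at 2.15 RPKM, *Twist1*, *Twist2* and *Vim* were higher, at 4.09, 3.87 and 2.37 RPKM, and the rest apart from *Snai2* lower.

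Barrier genes downstream of *Klf4* or *Grhl3* numbered 14, of which *Sprr2a3* and *Flg* had no entry and 6 passed, with 2 above 1, 1 below -1 and a median of 0.51. *Sprr1a* was highest at 3.26 and *Krt10* lowest at -2.95 on 7 footprints. The most abundant was *Sprr1b* at 215 RPKM. Of the 12 barrier genes with an entry, as many passed as did not.

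Of 40 other transcription factors of epidermis and hair follicle, 29 passed, with a median of 0.44. Of the 29, 11 were above 1 and 8 below -1, beside 20.8% and 21.1% of all passing genes. The first is a larger share than that of all passing genes, and the second is near it. *Id1*, an inhibitor of differentiation, was highest at 3.56 and *Tcf7l1*, a hair follicle stem cell factor, lowest at -3.80 on 3 footprints. The most abundant was *Hmga2* at 175 RPKM, the only gene of these 40 with more RNA than *Trp63*. In this larger list 19 genes lay above 0 and 10 below it.

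**Figure D3:**
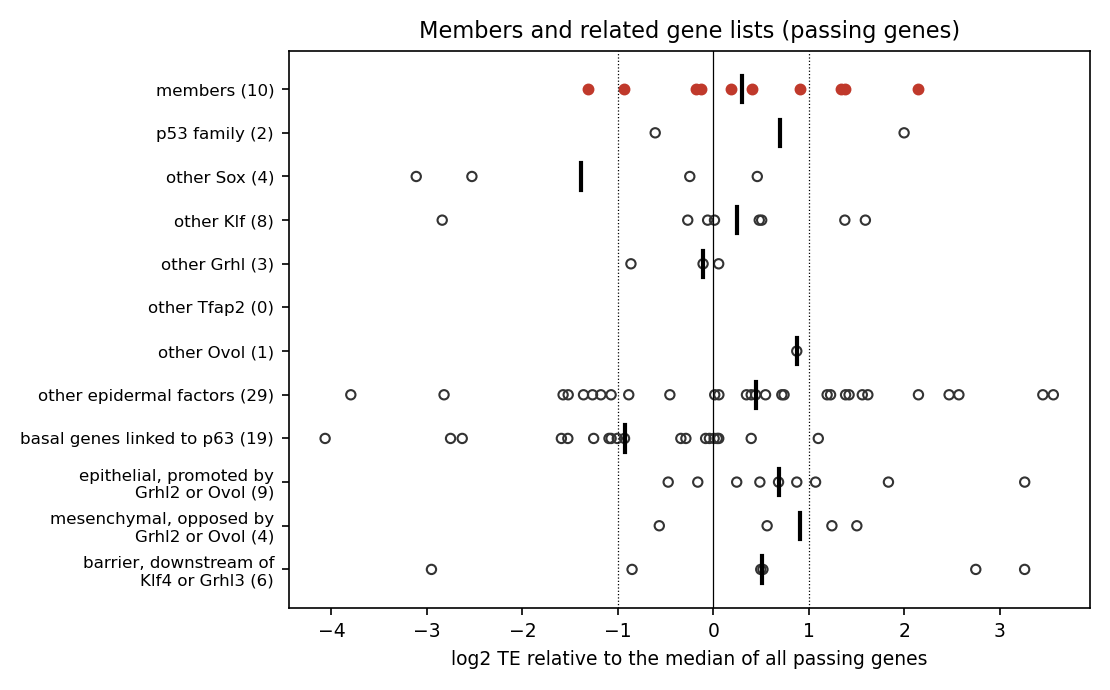
Log2 translational efficiency of the passing genes of each list, 1 point per gene, with a bar at the median. The 19 genes linked to p63 have a median of -0.93 and the 10 factors one of 0.30.

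Footprints on the 5′UTR can mark translation upstream of the start codon, so the regions of each factor were compared. In the whole ribosome profiling library 4.50% of exon counts lay on 5′UTRs and 1.84% on 3′UTRs, while RNA-seq had 3.48% and 27.2% in replicate 1 and 4.03% and 25.2% in replicate 2. The density on the 5′UTR over that on the CDS was read only where the counted 5′UTR spanned 30 nt or more and held 30 or more footprints, and the CDS held 10 or more. Of the 10, 3 met this, *Trp63*, *Sox2* and *Klf5*. Over the 1171 genes of the series that met it, the median log2 ratio was -1.04.

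*Trp63* had 38.8 footprints on 668 nt of 5′UTR, which is 3.17% of its exon footprints (95% Wilson interval 2.34% to 4.33%). Its log2 ratio of -3.19 was lower than in all but 7.77% of the genes compared. The counted 668 nt exceed both the ΔN leader of 144 nt and the TA leader of 525 nt in GENCODE M21, and how much of them the RNA in SCCc holds is unknown, so nothing is read from this ratio. *Sox2* had 33.5 footprints on 411 nt, 21.4% of its exon footprints (interval 15.9% to 28.7%), with a log2 ratio of -0.65 at the 61.8th percentile. Its counted 5′UTR is longer than the 11 nt of the GENCODE M21 model, so the gene model used in counting differed there. *Klf5* had 46.1 footprints on 304 nt, 8.36% (interval 6.31% to 10.9%), with a log2 ratio of -1.44 at the 37.1st percentile.

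RNA on the same regions gave another picture for *Klf5*. Only 2.63 RNA-seq counts of replicate 1 and 2.83 of replicate 2 fell on its 5′UTR, or 0.809 and 0.665 RPKM, while its CDS had 26.2 and 26.4 RPKM. The log2 RNA ratio of 5′UTR over CDS was -5.16, beside -2.15 in *Trp63*, -0.62 in *Sox2* and a median of -1.38 over 1155 genes. Footprints on the *Klf5* 5′UTR were thus many for the RNA counted there, and its log2 RNA ratio was lower than in all but 6.84% of those genes. Coverage at a 5′ end in RNA-seq and the true 5′ end of the transcript cannot be told apart in these counts.

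The other 7 factors had too few footprints on the 5′UTR for a ratio. *Sox9* had 20.6, *Grhl2* 18.4, *Tfap2c* 6.12, *Ovol1* 5.49, *Klf4* 5 and *Tfap2a* 2.63 footprints there. *Grhl3* had 0 of 26.0 exon footprints on its 5′UTR, which allows a share of up to 11.5% by the limit of 3 counts for a count of 0, and of up to 12.9% by the Wilson interval. In *Klf4*, where the upstream frame is long, the share was 4.85% of exon footprints (interval 2.09% to 10.9%), close to the 4.50% of the whole library. With 5 footprints, use of the upstream frame cannot be read at this depth.

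On 3′UTRs the factors held few footprints, with 22.4 on *Trp63* (1.98 RPKM, beside 149 RPKM on its CDS) and 8.25 or fewer on each of the others. *Grhl3* and *Tfap2c* had 0. RNA on the 3′UTR of *Trp63* was 162 and 131 RPKM, beside 139 RPKM on the CDS in each replicate, so the footprints dropped far more past the CDS than the RNA did in either replicate.

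**Figure D4:**
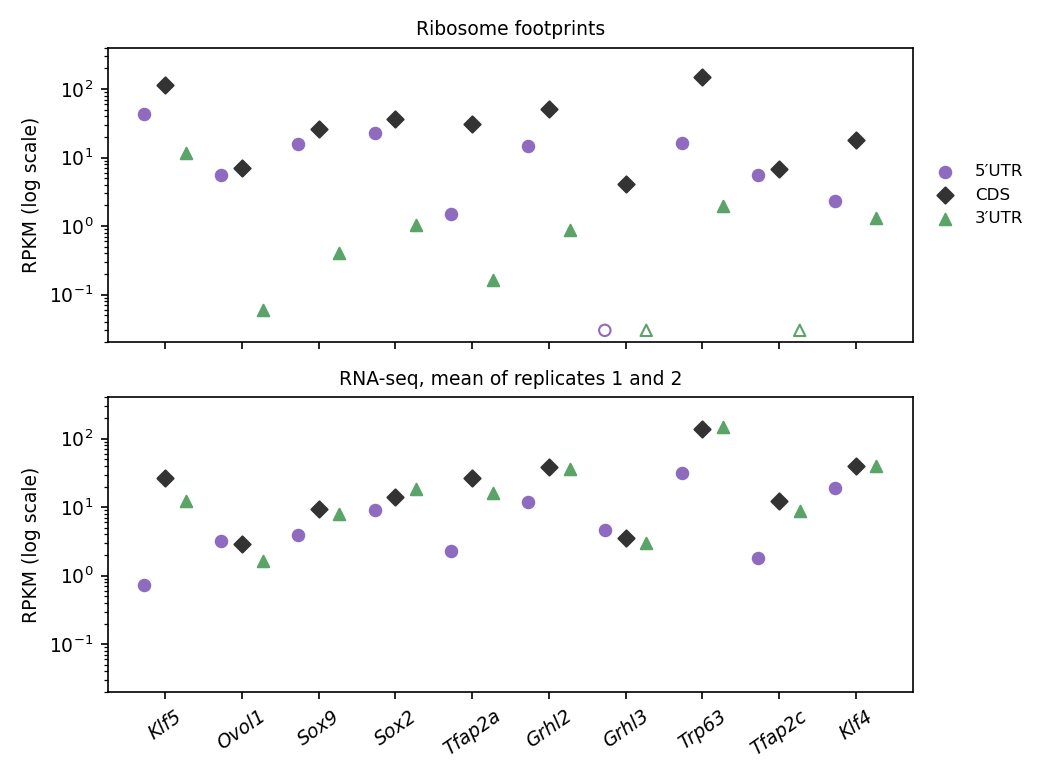
RPKM on a log scale on the 5′UTR, CDS and 3′UTR of each factor, for footprints (top) and the mean of RNA-seq replicates 1 and 2 (bottom), with open symbols at the lower edge for 0. Footprints lie highest on the CDS in each of the 10 factors, and the 5′UTR of *Klf5* has the lowest RNA.

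The RNA-seq replicates differed more for some factors than for others. On exons, the log2 ratio of replicate 2 to replicate 1 had a median of -0.01 and an SD of 0.20 over 9848 passing genes with at least 20 counts in both. Among the factors it ran from -0.18 in *Trp63* to 0.45 in *Grhl3*, with 7 of 10 higher in replicate 2, beside 47.3% of those genes. On the CDS, 8 of 10 were higher in replicate 2, beside 53.8% of 9653 genes, with a median of 0.25 beside 0.02 over all of them. On the 5′UTR, 3 of the 4 factors with enough counts were lower in replicate 2, beside 32.6% of 2702 genes, with a median of -0.03 beside 0.15. Of the 3, *Trp63* and *Klf4* were each at only -0.03, and *Sox2* at -0.53. Among the factors with too few counts, only *Klf5* was lower in replicate 2, at -0.28. The count of 3 thus does not set the factors apart. On the 3′UTR, 6 of the 9 factors with enough counts were lower in replicate 2, beside 68.9% of 7810 genes, so that count was near the background. The replicates thus differed in where along the mRNA their counts lay, and the part of this in the translational efficiencies was not tested beyond leaving out each replicate and counting RNA over the CDS.

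Changes in the calculation left *Klf5* above 1 in each of 11 alternatives, between 1.75 and 2.76, and *Klf4* below -1 in each of the 10 that kept it, between -1.37 and -1.17. *Sox9* stayed above 1 in 9 of 11 and *Ovol1* in 8 of 9. These alternatives include library scales and changes of reference genes that could move the values little by construction. *Trp63*, *Grhl2* and *Grhl3* changed sign under at least 1 alternative. *Trp63* was at 0.05 with RNA-seq counted over the CDS, but at -0.57 with at least 100 counts in every library and at -0.83 with counts not divided by length, so its distance below the median gene depends on these choices. Antisense transcripts overlap exons of *Grhl2*, *Tfap2a* and *Ovol1* in GENCODE M21, and whether counting used the strand is not stated.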

How the data were processed

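SCCc RNA was measured by 1 ribosome profiling library and 2 RNA-seq libraries, grouped by library type as labelled. The authors trimmed reads with Trim Galore, removed ribosomal, mitochondrial and tRNA matches from ribosome profiling with Bowtie2 2.4.1, aligned to GRCm38 with STAR 2.6.1 and counted genes with Plastid. The deposited counts are estimated counts (expected counts) per gene and region, not normalized and not always whole. The deposited RPKM divide these by length and by library totals of 202893242, 50733402 and 65593171. The other deposited values are the counted lengths in nt. The annotation release used for counting is not stated.

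RPKM was recomputed with the sum of exon counts as library total (Python 3.11.15, numpy 2.4.6, pandas 2.3.3, scipy 1.17.1, matplotlib 3.10.9). Size factors for the base mean (above 25) came from DESeq2 1.42.0 in R 4.3.3 on counts rounded to whole numbers. No pseudocount was added. Intervals of differences use a normal approximation to the counting error on the log2 scale. The calculation was run on Poisson counts simulated around the observed ones, with changes put into genes of at least 100 counts in every library. Those genes do not include *Klf4*, *Grhl3*, *Tfap2c* or *Ovol1*, and variation between libraries was not simulated. With 1 footprint library and 1 condition, no significance test was run.

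All 10 members were named whatever their values, and from each list the highest, the lowest and genes related to a member. Other genes named, the most abundant of a list among them, were chosen after their values were seen. Members and lists were chosen with earlier results of these data known. Alternatives were DESeq2 and edgeR 4.0.16 TMM scales, other filters, a pseudocount of 1 RPKM, RNA-seq over the CDS, counts not divided by length, each RNA-seq replicate left out and, chosen after seeing the data, genes of similar CDS length as reference. Long-read libraries were not analysed here. Gene structures and sequences follow GENCODE M21.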

Additional observations from a re-analysis of the deposited data

How the results depend on the processing

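With at least 100 counts in every library, *Klf4*, *Grhl3*, *Tfap2c* and *Ovol1* were lost, the median log2 translational efficiency of the 6 left was 0.26, 1 factor was above 1 (*Klf5*) and 0 were below -1. The loss of *Klf4* and *Ovol1* accounts for part of this by construction, and *Sox9* fell under 1 because the reference genes changed. RNA-seq over the CDS gave a median of 0.26 and put *Sox2* above 1, at 1.33. Counts not divided by length gave a median of 0.20 and 1 factor above 1, *Klf5*. By construction, leaving out length shifts each gene by the log2 of its counted CDS length over its exon length, before the median is subtracted. Without each RNA-seq replicate in turn, the median ran from 0.27 to 0.31, the factors above 1 numbered 3 both times, and those below -1 ran from 1 to 2, since *Tfap2c* reached -1.04 without replicate 1. With the deposited RPKM in the filter, *Grhl3* and *Ovol1* were lost and 2 factors were above 1. Under DESeq2 or TMM scales, no filter, a pseudocount of 1 RPKM and, chosen after seeing the data, reference genes of similar CDS length, the counts stayed at 3 above 1 and 1 below -1. Apart from the pseudocount, these settings could hardly change the counts. A library scale largely cancels against the median gene, and other reference genes shift every factor alike. Of 104 efficiencies of single factors under the alternatives, these settings included, 99 kept their side of both limits. Without a minimum of footprints, 9 factors in place of 3 had a ratio of 5′UTR over CDS. Depth limits *Grhl3*, *Ovol1* and *Tfap2c* most. No paired analysis was possible because footprints and RNA-seq came from libraries not matched by replicate.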

Other observations

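These genes of the lists were picked after their values were seen. *Cdh2*, a mesenchymal cadherin, had 76 footprints on its CDS but only 7 and 18.9 RNA-seq counts in replicates 1 and 2, so it did not pass. *Barx2*, a factor of skin and hair, had 115 and 174 RNA-seq counts and 0 footprints. *Satb1* had 11 footprints with 2 and 1.68 RNA-seq counts.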
